A study of Saccharomyces cerevisiae with 48 samples.

Results

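Chromosome XII (Chr XII) of budding yeast is interrupted by the ribosomal DNA, and the time at which the DNA on both sides of that repeat, and the few measured places inside it, were replicated is given here. The members are all bins of 1 kb that the deposited files hold on Chr XII, 982 of 11338 bins in the nuclear genome. They were chosen by coordinate alone (build R64) and fell into 3 blocks. The left block holds 430 bins and ends at 451000, the right block holds 547 bins and starts at 491001, and the block between them, which holds the repeat, has 5 bins in the files.

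DNA was sequenced from cells released from alpha-factor arrest in G1, at 11 timepoints from 5 to 60 min, in 4 W303 MATa strains with 1 time course each. The *SSDDCS* strains over-express Sld2, Sld3, Dpb11, Dbf4, Cdc45 and Sld7, the limiting factors for the initiation of replication, from the GAL1-10 promoter at the leu2, his3 and trp1 loci, and galactose was added to the arrested cells and kept during the release. The control strains lack these constructs. All strains lack *SML1*, the inhibitor of ribonucleotide reductase (marked, per the labels, by HphNT with *SSDDCS* and by URA3 without; the study's strain list writes HphMX for the former), all carry rad5-535 and the ade2-1, ura3-1, his3, trp1-1, leu2 and can1-100 alleles, and each pair also lacks 2 origins: ARS1008 and ARS1009 on Chr X, or ARS816 and ARS818 on Chr VIII. The strains are called *SSDDCS ars1008∆ ars1009∆*, *sml1∆ ars1008∆ ars1009∆*, *SSDDCS ars816∆ ars818∆* and *sml1∆ ars816∆ ars818∆*. The 1-kb bin of ARS1008 was in none of the files of the strains that lack it and in all 11 files of each other strain. The bins of ARS1009 and ARS818 were in all 11 files of every strain, so they do not check the labels, and ARS816 was not checked. With 1 time course per strain no difference between strains has a replicate check. The 2 backgrounds differ in genotype and were not treated as replicates, so no test was made and every comparison is a description of these 4 cultures.

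Replication of budding yeast chromosomes starts at origins, which contain a match to the ARS consensus sequence that the origin recognition complex binds, and forks then move outwards until they meet a fork from the next origin. The ribosomal DNA is a tandem array in which each unit holds the 35S precursor gene, the 5S gene and an origin, and a barrier in each unit stops forks that run against 35S transcription. The reference sequence of Chr XII writes out only a short form of the array, so reads from its copies cannot be separated. The measured value is the ratio of uniquely mapped reads at a timepoint to those in G1 of the same strain, which runs from 1 before to 2 after replication. The replication time, T_rep, is the time at which the curve fitted to the 11 ratios of a bin passed 1.5.

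The 3 sequences shown here place the annotated origins nearest to the measured bins at the repeat: the last one before it, the first one inside it, and the first one after it. They are RefSeq sequences of build R64, plus strand, and capitals mark the match to the 11-bp ARS consensus sequence.
ARS1216, chrXII:450485-450725: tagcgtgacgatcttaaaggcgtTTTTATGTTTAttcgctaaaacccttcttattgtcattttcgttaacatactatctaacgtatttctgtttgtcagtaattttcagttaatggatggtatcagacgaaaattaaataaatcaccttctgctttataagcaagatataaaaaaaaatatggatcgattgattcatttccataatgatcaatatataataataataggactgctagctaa
ARS1200-1, chrXII:458991-459097: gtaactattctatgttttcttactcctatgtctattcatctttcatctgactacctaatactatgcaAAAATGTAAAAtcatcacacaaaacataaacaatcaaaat
ARS1217, chrXII:512867-513115: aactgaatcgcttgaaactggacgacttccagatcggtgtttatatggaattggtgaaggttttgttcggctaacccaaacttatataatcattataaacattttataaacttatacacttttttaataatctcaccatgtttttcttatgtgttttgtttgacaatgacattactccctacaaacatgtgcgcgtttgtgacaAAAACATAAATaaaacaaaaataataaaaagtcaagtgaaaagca
Searched on both strands, each of the 3 held a match to all 11 positions of the consensus, on the plus strand in ARS1216 and on the minus strand in ARS1200-1 and ARS1217. Of all 1-kb bins in the files 6.16% held a full match, with 5.81% in the left block and 6.40% in the right. Among windows of the same length along the genome the share was 1.49% for ARS1216, 0.636% for ARS1200-1 and 1.57% for ARS1217. ARS1216 lies between genes, 0.275 kb before the repeat block. ARS1217 starts inside the end of the open reading frame YLR177W, 21.9 kb beyond the block. ARS1200-1 lies in the spacer between the 35S and 5S genes, and its second reference copy, ARS1200-2, 9137 bp further on, was identical over all 107 bp.

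The 5 bins that the files hold inside the repeat block were those with sequence found only once in the reference. Of the 31-base words that start in them, between 22.5% and 55.4% occurred once in the reference genome. In the other 35 bins of the block the share was 0% to 3.10%. The bin from 451001 to 452000 holds the 3′ end of the first 35S gene (RDN37-1, with RDN25-1, the 25S rRNA), and the bin from 459001 to 460000 the last part of ARS1200-1 and the 5S gene RDN5-1. The bin from 460001 to 461000 holds the 3′ end of the second 35S gene (RDN37-2). The bin from 489001 to 490000 holds a further 5S gene (RDN5-6) and the open reading frames YLR161W and YLR162W, and the last one, from 490001 to 491000, holds RRT15. In the first of these bins the words that occurred once started between 451001 and 451417. They lay downstream of RDN37-1, which is on the minus strand with its 3′ end at 451575. In the bin from 460001 to 461000 they likewise lay downstream of RDN37-2. In the bin from 459001 to 460000 they started only from 459769 on, within and beyond RDN5-1, so none lay in ARS1200-1. The reference writes out only a short form of the array. Words found once there, such as those between RDN5-1 and RDN37-2, can therefore recur in other units in the cells. The ratio of such a bin can then be an average over units. No bin of the ASP3 genes, which encode the nitrogen-regulated asparaginase and lie between 469317 and 487289, had a value in any file.

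Across the genome the median T_rep was 16.1 and 22.3 min in the *SSDDCS* and *sml1∆* strains without ARS1008 and ARS1009, and 20.7 and 25.2 min in those without ARS816 and ARS818. The median residual of the fits on Chr XII was between 0.0698 and 0.0797 ratio units. Neighbouring bins of Chr XII differed by 1.57 to 2.22 min (the median over neighbours in the 4 strains), which is the scale against which a single bin should be read. Read counts are not in the files, so the depth behind a value is unknown and no counting interval is given.

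The left block replicated earlier than the right block in each strain. Its median T_rep was 15.5 min in *SSDDCS ars1008∆ ars1009∆*, 20.9 min in *sml1∆ ars1008∆ ars1009∆*, 20.2 min in *SSDDCS ars816∆ ars818∆* and 24.5 min in *sml1∆ ars816∆ ars818∆*. The right block followed at 16.3, 22.7, 21.2 and 25.6 min in the same order, over 546 fitted bins. The difference was 0.815, 1.79, 1.03 and 1.1 min, and the order of the blocks held in every fit that left out 1 timepoint (0.647 to 1.20, 1.25 to 2.19, 0.967 to 1.16 and 1.04 to 1.34 min). These differences were small beside the spread within a block, where the SD over bins was 3.90 to 4.69 min on the left and 3.69 to 4.98 min on the right.

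Compared with the other 15 chromosomes, the left block lay on the early side and the right block on the late side. The left median differed from that of the other chromosomes together by -0.539, -1.42, -0.481 and -0.714 min, and the right median was later by 0.276, 0.366, 0.549 and 0.383 min. Of the 15 other chromosomes, taken whole, 1, 2, 3 and 4 had an earlier median than the left block, whereas 11, 11, 14 and 11 had an earlier median than the right block. Neither block lay outside the range of the other chromosomes in any strain.

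**Figure D1:**
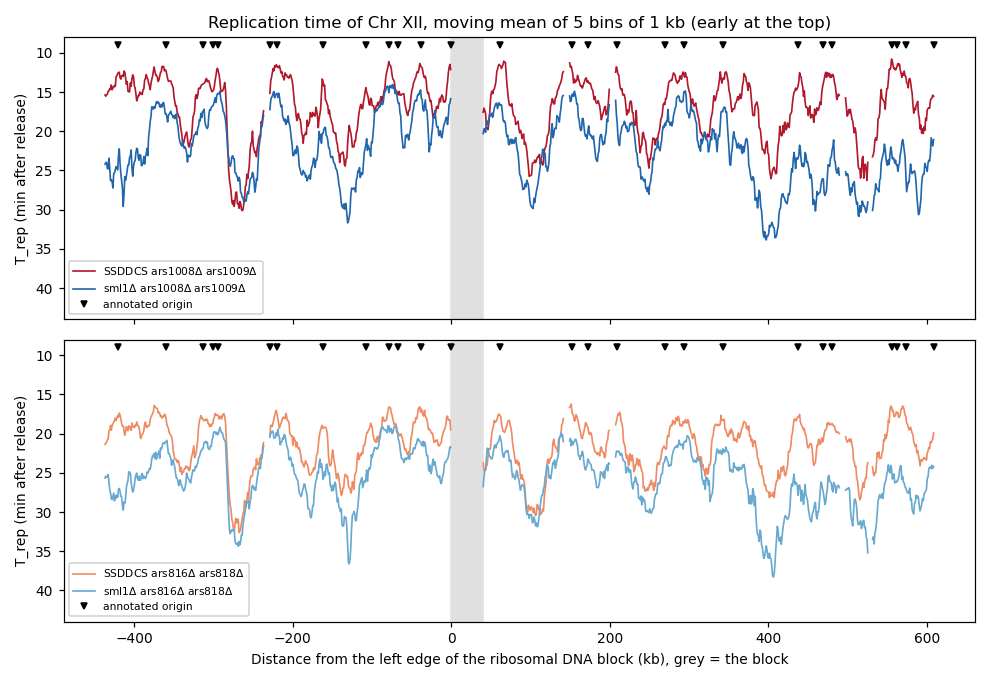
T_rep along Chr XII as a moving mean of 5 bins, in min after release (early at the top), against the distance in kb from the left edge of the ribosomal DNA block, for the *SSDDCS* and *sml1∆* strains without ARS1008 and ARS1009 (upper panel) and without ARS816 and ARS818 (lower panel). Triangles mark the 27 annotated origins outside the repeat, and the *SSDDCS* curve is the earlier one along most of the chromosome, while the curves meet in the late part of the left block.

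The share of replicated DNA at each timepoint showed the same order of the blocks. In *sml1∆ ars1008∆ ars1009∆* the median ratio at 20 min was 1.52 in the left block and 1.41 in the right, beside 1.44 for the genome, and 53.0% of left bins but 35.7% of right bins were above 1.5. In *SSDDCS ars1008∆ ars1009∆* the same timepoint gave 1.7 and 1.63, with 74.9% and 72.2% of bins above 1.5. In *sml1∆ ars816∆ ars818∆* the widest gap was at 30 min, with 1.78 on the left and 1.69 on the right, and in *SSDDCS ars816∆ ars818∆* it was at 25 min, with 1.74 and 1.68. The left median was above the right median at 9 of 11 timepoints in every strain. The other timepoints were at or before 15 min, and there left minus right was between -0.0165 and 0.

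Close to the repeat the order of the sides was the same, and with *SSDDCS* the step was larger than between the whole blocks. The mean T_rep of the 10 fitted bins on the left, with the SD over bins, was 14.1 ± 2.68 min in *SSDDCS ars1008∆ ars1009∆*, against 18.2 ± 2.96 min for the 10 on the right. In *SSDDCS ars816∆ ars818∆* the means were 18.8 ± 1.96 and 23.3 ± 2.31 min. The steps of 4.12 and 4.56 min (3.83 to 4.42 and 4.38 to 4.72 min when 1 timepoint was left out) were wider than the SD within a flank. Without *SSDDCS* the step was smaller than that SD. It was 1.40 min without ARS1008 and ARS1009 (17.7 ± 2.57 against 19.1 ± 2.0 min) and 0.692 min without ARS816 and ARS818 (22.9 ± 1.31 against 23.6 ± 2.75 min). On the other chromosomes the same measure, taken at every place with a gap of 40 kb, had a median size of 3.32 and 2.90 min with *SSDDCS* and 4.13 and 3.48 min without, and 58.5% and 69.8% of the places in the *SSDDCS* strains, but 18.1% and 10.1% in the *sml1∆* strains, had a smaller step than the one across the repeat.

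With 20 bins on each side the steps were 0.877 and 1.22 min with *SSDDCS* and -0.691 and -1.51 min without. The timing on both sides changed within 20 kb. On the left, T_rep rose with distance from the repeat by 0.270, 0.197, 0.188 and 0.233 min per kb in the order of strains above, so the bins nearest to the repeat were the early ones. On the right it fell with distance, towards ARS1217, with slopes of -0.384, -0.192, -0.435 and -0.191 min per kb. The bins at the right edge were thus the late ones of that side, and the fall was steeper with *SSDDCS* than without it in both backgrounds, also when any 1 timepoint was left out.

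The bin from 450001 to 451000 is the last before the repeat and holds ARS1216. Its ratio had a lowest value of 1.20, a median of 1.87 and a highest value of 2.04 over the 11 timepoints in *SSDDCS ars1008∆ ars1009∆*. It ran from 1.11 through 2.03 to 2.35 in *sml1∆ ars1008∆ ars1009∆*, where it was above the genome median at each of the 11 timepoints. With *SSDDCS ars816∆ ars818∆* it ran from 0.998 through 1.83 to 2.09, and with *sml1∆ ars816∆ ars818∆* from 1.02 through 1.90 to 2.07. These ratios gave a T_rep of 11.5, 13.3, 18.9 and 21.2 min, all earlier than the strain's genome median, with differences of -4.52, -8.93, -1.74 and -4.04 min. In *sml1∆ ars1008∆ ars1009∆* only 0.839% of all bins were earlier than this one, and in *SSDDCS ars816∆ ars818∆* 27.7% were. In the former strain its ratio was 1.08 times the genome median at 5 min and 1.33 times at 20 min. It was still 1.21, 1.12 and 1.06 times the genome median at 45, 50 and 60 min. The fitted curve has fixed ends, so such a lasting high level can lower T_rep. How much of the early time came from this level was not tested.

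Of the 4 bins to the left of it, that from 447001 to 448000 holds the start of ACS2 (acetyl-CoA synthetase) and the last bases of RNH203 (a subunit of RNase H2). It had a T_rep of 9.55, 18.2, 14.4 and 21.4 min, and in the *SSDDCS* strains only 0.380% and 0.141% of all bins were earlier. Those fits were loose, with residuals of 0.196 and 0.182. In both *SSDDCS* strains this bin stood above the genome median at all 11 timepoints, so its level can lower T_rep here as well. Of the 20 values of the 5 bins in 4 strains, all but the 21.7 min of the bin from 449001 to 450000 in *SSDDCS ars816∆ ars818∆* were earlier than the genome median.

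The first bin beyond the repeat block runs from 491001 to 492000 and holds the end of MAS1, a subunit of the mitochondrial processing peptidase. Its lowest, median and highest ratios were 1.19, 1.75 and 2.06 in *SSDDCS ars1008∆ ars1009∆* and 1.06, 1.92 and 2.13 in its *sml1∆* partner. They were 1.1, 1.86 and 2.21 in *SSDDCS ars816∆ ars818∆* and 0.999, 1.86 and 2.17 in its partner. The T_rep was 18.9, 18.9, 22.2 and 23.6 min, so that in the first pair it was the same with and without *SSDDCS*, while the genome median was earlier with it. Against the bin of ARS1216 on the other side it was later by 7.35, 5.53, 3.23 and 2.39 min, with leave-one-out ranges from 6.94 to 7.60, 5.09 to 5.89, 1.42 to 4.48 and 2.08 to 2.58 min.

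The next 4 bins on the right, over MAS1, SHH4 (a homologue of a succinate dehydrogenase subunit), PUS5 (a pseudouridine synthase of mitochondrial rRNA) and the end of SEC10 (an exocyst subunit), were uneven. In *SSDDCS ars1008∆ ars1009∆* they ran from 14.1 to 19.7 min, and in *sml1∆ ars1008∆ ars1009∆* from 17.9 to 22.6 min. In *SSDDCS ars816∆ ars818∆* all 4 lay between 23.6 and 27.6 min, later than the genome median, and in its partner between 21.6 and 28.7 min. The bin from 494001 to 495000 had the second largest delay of the outer blocks relative to the genome in the ars816∆ ars818∆ background, with 27.6 min against 21.7 min in the *sml1∆* partner. With *SSDDCS* its ratio was below the genome median at all 11 timepoints, at 0.935, 0.828 and 0.889 of it at 5, 20 and 60 min. In the partner it was above at all 11, at 1.04, 1.07 and 1.06. The fitted curve has fixed ends, so these lasting levels can widen the delay. Their part in it was not tested. The same bin had 15.5 and 17.9 min in the strains without ARS1008 and ARS1009.

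**Figure D2:**
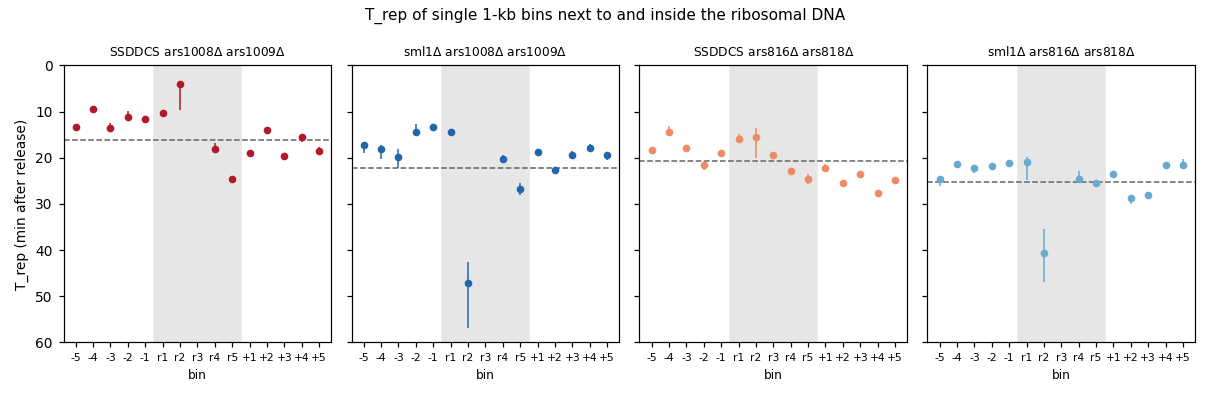
T_rep in min after release (early at the top) of the 5 bins before the ribosomal DNA block (-5 to -1), the 5 bins inside it (r1 to r5, grey) and the 5 bins after it (+1 to +5) in each strain; bars are the range when 1 timepoint is left out and the dashed line is the genome median. The bins before the block lie mostly above the line, and r2, the ARS1200-1 bin, has an extreme value with a wide range in the *sml1∆* strains.

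Relative to the genome, the right flank was the side that *SSDDCS* advanced least. After the genome-wide median difference between the *SSDDCS* strain and its *sml1∆* partner was taken off (-5.50 min without ARS1008 and ARS1009, -4.18 min without ARS816 and ARS818), the 10 bins on the right were later by 4.60 ± 3.73 and 3.88 ± 3.67 min (mean and SD over bins). The 10 bins on the left differed by 1.89 ± 3.01 and 0.0079 ± 2.01 min. In minutes as measured, the right flank differed between *SSDDCS* and *sml1∆* by -0.904 and -0.302 min and the left flank by -3.62 and -4.17 min. On the right 8 and 5 of the 10 bins were later by over 3 min after centring, beside 25.7% and 19.8% of all bins of the genome.

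Within the repeat block, the left edge was earlier than the right edge. In the bin from 451001 to 452000 the words found once in the reference lie just downstream of the 35S gene. Its T_rep was 10.3, 14.5, 15.9 and 20.9 min, earlier than the genome median in all 4 strains. The RDN5-6 bin at the other edge had 18.1, 20.2, 23.0 and 24.6 min, and in *SSDDCS ars1008∆ ars1009∆* it was missing from the 20 min file. The RRT15 bin was later again, at 24.7, 26.7, 24.6 and 25.6 min. It was later than the genome median by 8.61 and 4.44 min in the first pair of strains and by 3.89 and 0.303 min in the second. The RRT15 bin was thus later than the bin at the left edge in every strain, while the RDN5-6 bin was earlier than the genome median in the *sml1∆* strains and later in the *SSDDCS* strains.

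The bin from 459001 to 460000, called the ARS1200-1 bin for the origin whose last part it spans, could not be described by the curve, with residuals of 0.446, 0.241, 0.407 and 0.221, so its ratios are given in place of a time. In *SSDDCS ars1008∆ ars1009∆* the ratio was 1.62 at the first timepoint, had a median of 2.07 and reached 3.26, and it was above 1.5 at all 11 timepoints and above 2 at 7. In *SSDDCS ars816∆ ars818∆* it ran from 1.07 through 1.86 to 3.19, above 1.5 at 9 timepoints and above 2 at 3. In *sml1∆ ars1008∆ ars1009∆* it ran from 1.04 through 1.32 to 2.0 and passed 1.5 at 1 timepoint, and in *sml1∆ ars816∆ ars818∆* from 0.799 through 1.28 to 1.95, passing 1.5 at 2. A ratio of 2 is the end of replication in G1 units, and no value of the *sml1∆* strains exceeded it.

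The highest values of the 2 *SSDDCS* strains fell at the same timepoint, and so did those of the 2 *sml1∆* strains. With *SSDDCS* the ratio stood at 2.59 and 2.42 at 30 min, dropped to 1.98 and 1.95 at 35 min, and was highest at 50 min. At 15 min it stood at 2.07 and 1.73, and fell to 1.99 and 1.51 at 20 min. From 35 to 45 min the strains differed, with 1.98, 2.18 and 2.31 in *SSDDCS ars1008∆ ars1009∆* and 1.95, 2.11 and 1.86 in *SSDDCS ars816∆ ars818∆*. Without *SSDDCS* it was highest at 40 min in both strains (2.0 and 1.95), with 1.39 and 1.29 at 35 min and 1.27 and 1.41 at 45 min. The genome medians rose at every step, but the scaling to flow cytometry sets the level of each file. They are therefore no contrast to these jumps and drops. What set these timepoints apart was not tested.

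The bin beside it, from 460001 to 461000, was in 12 files, all of *SSDDCS* strains: 4 timepoints of *SSDDCS ars1008∆ ars1009∆* and 8 of *SSDDCS ars816∆ ars818∆*. Where it was present its ratio differed from that of the ARS1200-1 bin by at most 0.0440, for example 2.02 against 2.02 at 25 min in the former strain and 1.08 against 1.07 at 10 min in the latter. At 15, 30 and 50 min, when the ARS1200-1 bin jumped, it was absent from the files of both strains, and in *SSDDCS ars816∆ ars818∆* these were the only files without it.

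Averaged over 45, 50 and 60 min and divided by the genome median, the ARS1200-1 bin of the *SSDDCS* strain was 1.94 times that of its *sml1∆* partner without ARS1008 and ARS1009, and 1.48 times without ARS816 and ARS818. The late levels themselves were 1.32 and 1.18 of the genome median with *SSDDCS*, and 0.683 and 0.795 without it. The factors thus hold both a high level with *SSDDCS* and a low one in the *sml1∆* strains. At 60 min the ratio of the latter was 1.32 and 1.49, beside genome medians of 1.99 in both. Without the 50 min timepoint the factors were 1.76 and 1.31. A part of the gap was already there at 5 and 10 min, when the relative ratios were 1.34, 1.1, 1.04 and 0.886 in the order of strains above. Taking the late over the early value, the factors were 1.59 and 1.26, and 1.44 and 1.12 without 50 min. The late relative level thus stayed above that of the partner in both backgrounds under each of these choices, and the size rested in part on the 50 min libraries.

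**Figure D3:**
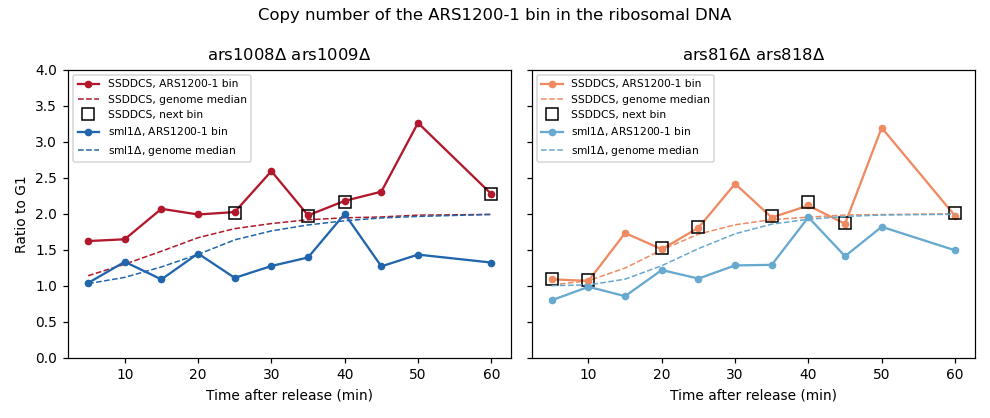
Ratio to G1 of the bin that holds the end of ARS1200-1 against time after release in min, in the strains without ARS1008 and ARS1009 (left) and without ARS816 and ARS818 (right); dashed lines are the genome medians and open squares the bin beside it, where present. Both *SSDDCS* lines peak at 50 min, at 3.26 and 3.19, and both *sml1∆* lines at 40 min, at 2.0 and 1.95.

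Of the 27 annotated origins outside the repeat, 13 lie in the left block and 14 in the right. T_rep at an origin is the mean of the bins within 2 kb. With *SSDDCS* the origins of Chr XII fell within a narrow range, from 11.0 to 16.0 min without ARS1008 and ARS1009 (SD over origins 1.41 min) and from 16.1 to 21.8 min without ARS816 and ARS818 (1.34 min). Without it they ran from 14.1 to 25.1 min (3.52 min) and from 19.1 to 27.8 min (2.73 min). With *SSDDCS*, 27 and 26 of the 27 were earlier than the genome median, the exception being ARS1221, and without it 20 and 19 were. The same share was not taken for origins elsewhere, so these counts are not read as a trait of Chr XII. On the other chromosomes bins within 5 kb of an origin were also early, with medians of 13.3, 19.8, 18.5 and 23.1 min in the order of strains above.

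In the *sml1∆* strains the origins of the right block were later than those of the left, and in the *SSDDCS* strains their medians lay close together. Without *SSDDCS*, 12 and 11 of the 13 left origins, but 8 of the 14 right origins in each strain, were earlier than the genome median, and the median over origins was 16.5 and 21.2 min on the left and 20.2 and 23.6 min on the right. In the *SSDDCS* strains the medians over origins of the sides were 12.3 and 13.1 min, and 18.4 and 18.3 min. All the right origins were then earlier than the genome median without ARS1008 and ARS1009, and 13 of 14 without ARS816 and ARS818.

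ARS1216, the origin at the left edge of the repeat, was the earliest of the 27 in both strains without ARS1008 and ARS1009, at 11.0 ± 0.631 min with *SSDDCS* and 14.1 ± 0.637 min without (mean and SD over 3 bins, of which the last lies in the repeat block). In the strains without ARS816 and ARS818 it was at rank 20 with *SSDDCS* (18.8 ± 2.90 min) and at rank 11 without (21.3 ± 0.414 min). Between the backgrounds, after centring, its difference (deletion of ARS1008 and ARS1009 less that of ARS816 and ARS818) came to -3.15 min with *SSDDCS* (-4.02 to -2.61 min when 1 timepoint was left out) and -3.74 min without (-5.22 to -3.44 min). These were the lowest values among the 27 origins in both comparisons, with an SD over the 3 bins of 2.47 and 0.738 min. Over the last 3 timepoints these bins averaged 1.15, 1.13 and 1.08 of the genome median in *sml1∆ ars1008∆ ars1009∆*. In *sml1∆ ars816∆ ars818∆* they averaged 1.02, 1.01 and 0.995. With *SSDDCS* they averaged 1.07, 0.970 and 1.05, against 0.940, 0.997 and 1.04, so the middle bin went the other way. The fitted curve has fixed ends, so a high level can lower T_rep. Its part in these differences and ranks was not tested. The 10 bins of the left flank together differed by -0.0601 min with *SSDDCS* and -1.77 min without. The other origins ranged up to 1.04 and 1.79 min, and the median size over origins was 0.969 and 0.990 min.

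ARS1213, between HOG1 (the kinase of the osmotic stress response) and a tRNA gene, was among the 3 earliest origins in each strain, at 11.1, 14.7, 16.5 and 19.1 min. ARS1232 joined it with *SSDDCS* (11.1 and 16.5 min), and ARS1218 was the earliest of all in *SSDDCS ars816∆ ars818∆* at 16.1 min. Without *SSDDCS* the other places among the first 3 went to ARS1223 (14.9 min) in the ars1008∆ ars1009∆ strain and to ARS1211 and ARS1208, which adjoins the centromere, in the other (19.8 and 19.8 min). The latest origins with *SSDDCS* were ARS1221 (16.0 and 21.8 min), followed by ARS1235 and ARS1208 in the first strain and by ARS1228 and ARS1214 in the second. Without *SSDDCS* the 3 latest were ARS1233, ARS1228 and ARS1234 in the first strain (25.1, 24.9 and 24.0 min) and ARS1228, ARS1238 and ARS1230 in the second (27.8, 27.4 and 27.1 min), all on the far right.

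**Figure D4:**
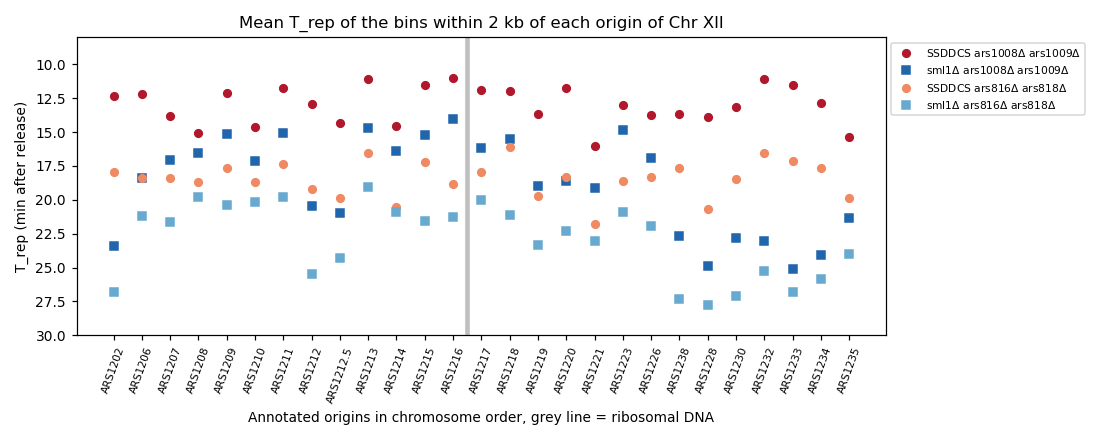
Mean T_rep in min after release (early at the top) of the bins within 2 kb of each of the 27 origins of Chr XII outside the repeat, in chromosome order, in 4 strains. ARS1202 at the left end and the 6 origins from ARS1238 to ARS1234 on the right are late in both *sml1∆* strains, and the *SSDDCS* points span 11.0 to 16.0 min and 16.1 to 21.8 min.

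The origins that *SSDDCS* advanced most relative to the genome were the late ones of the chromosome's outer parts. The centred difference was -8.08 min at ARS1233, -6.47 min at ARS1232 and -5.71 min at ARS1234 in the ars1008∆ ars1009∆ background. In the ars816∆ ars818∆ background the first 3 were ARS1238 (-5.49 min), ARS1233 (-5.49 min) and ARS1202 (-4.72 min). The *sml1∆* value enters this difference, so an origin that is late without *SSDDCS* is more likely to be among them. In these backgrounds 7 and 6 of the 27 origins (25.9% and 22.2%) were earlier by over 3 min, beside 32.0% and 23.1% of the 309 and 308 measured origins of the other chromosomes and 28.2% and 23.3% of all bins. Chr XII thus had no larger share of such origins than the rest of the genome. Of its origins, ARS1202, ARS1230, ARS1232, ARS1233, ARS1234 and ARS1238 were so in both. Later by over 3 min were 4 and 2 of the 27, beside 11.3% and 5.84% of the origins elsewhere. At that end were ARS1208, ARS1214 and ARS1223 (later by 4.0, 3.67 and 3.64 min) in the former and ARS1214, ARS1208 and ARS1221 (3.84, 3.01 and 3.00 min) in the latter. ARS1214 was at 14.6 min with *SSDDCS* and 16.4 min without, and at 20.6 and 20.9 min in the other pair, so that centring turned a small advance into a delay.

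Between origins, the latest bin of the left block lay in another gap with *SSDDCS* than without, although both gaps were late in each strain. With *SSDDCS* the latest bins of that block lay in the 65.7 kb without an annotated origin between ARS1209 and ARS1210. They were the bin from 188001 to 189000 in UBR2 (a ubiquitin ligase), at 33.8 min, and that from 185001 to 186000 in IZH3 (a membrane protein of zinc metabolism), at 35.8 min. Without *SSDDCS* they lay between ARS1212 and ARS1212.5, over XDJ1 (a DnaJ-type chaperone), from 321001 to 322000 at 34.8 min and from 322001 to 323000 at 40.7 min. As a moving mean of 5 bins, the latest place between ARS1209 and ARS1210 followed the genome median by 14.1, 6.76, 11.9 and 9.12 min. Between ARS1212 and ARS1212.5 it followed by 8.38, 9.42, 7.19 and 11.4 min, in the order of strains above. Averaged over the 59 bins between ARS1209 and ARS1210, T_rep was 22.9 min with *SSDDCS* and 23.4 min without, and 25.6 and 27.4 min in the other background, a smaller advance than that of the genome.

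In the right block the longest stretch without an annotated origin, 94.5 kb from ARS1226 to ARS1238, was the latest place without *SSDDCS*. Its latest bins were at 37.5 min in the bin from 849001 to 850000, over DCR2 (a phosphatase) and STE11 (a kinase of the mating response), and at 41.6 min in that from 844001 to 845000, which holds ADE13 (adenylosuccinate lyase). With *SSDDCS* the latest bin was at 34.2 min over ATG17 (an autophagy scaffold) and SPP382 (a splicing factor), from 973001 to 974000, in 1 background. In the other it was at 35.2 min over ENT2 (an epsin) and HRD3 (of the ER-associated degradation ligase), from 556001 to 557000. The mean over the 93 bins of the ARS1226 to ARS1238 stretch fell from 26.5 to 18.1 min and from 29.3 to 22.4 min.

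The earliest bins of both sides lay mostly next to origins, the GPI13 bin being the exception. On the left they lay at 9.06 min in SLX4 (a scaffold of structure-specific nucleases, 413001 to 414000), 12.2 min in AVL9 (375001 to 376000), 13.4 min in GPI13 (of GPI anchor synthesis, 78001 to 79000) and 15.7 min at ARS1213 (373001 to 374000), in the order of strains above. On the right they lay at 9.54 min over IMD3 and CNA1 (1004001 to 1005000), 12.5 min in YLR257W (658001 to 659000), 14.0 min over CNA1 and TSR2 (1006001 to 1007000) and 17.6 min in ECM22 (a sterol regulator, 601001 to 602000). CNA1 encodes a catalytic subunit of calcineurin. Bins within 5 kb of an origin had a median T_rep on the left of 13.3, 17.2, 18.3 and 21.3 min, and those over 20 kb away were later by 7.10, 8.12, 5.97 and 6.06 min. On the right the far bins were later by 7.70, 6.29, 6.69 and 5.15 min, beside 6.97, 6.19, 6.11 and 5.48 min on the other chromosomes. With *SSDDCS* the gap was thus wider on the right and on the other chromosomes in both backgrounds, whereas on the left it was narrower without ARS1008 and ARS1009 and about the same, 5.97 against 6.06 min, without ARS816 and ARS818.

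Relative to the genome, *SSDDCS* advanced the left block less than the right. The centred median difference between *SSDDCS* and *sml1∆* was 1.52 min in the left block and -0.0001 min in the right without ARS1008 and ARS1009, and 0.767 and -0.121 min without ARS816 and ARS818. The SD over bins was 3.27 to 4.65 min. Leaving out 1 timepoint kept the left values between 1.28 and 1.56 min and between 0.724 and 0.931 min, and moved the right ones across 0 (-0.305 to 0.265 and -0.130 to 0.0278 min). In minutes as measured the median difference was -3.99 and -3.41 min in the left block and -5.50 and -4.30 min in the right, and between 87.2% and 91.2% of bins were earlier.

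The counts of bins past 3 min gave the same picture. Without ARS1008 and ARS1009, 146 of 430 left bins (34.0%) were later and 66 (15.3%) earlier after centring, beside 25.7% and 28.2% of all bins, whereas 125 of 546 right bins (22.9%) were later and 161 (29.5%) earlier. Without ARS816 and ARS818, 98 left bins (22.8%) were later and 57 (13.3%) earlier, beside 19.8% and 23.3% of all bins, and on the right 96 (17.6%) and 125 (22.9%). The right block's shares were thus close to those of the genome, and the left block had a smaller share of earlier bins in both backgrounds. In both backgrounds at once, 51 left bins (11.9%) and 41 right bins (7.51%) were later, beside 9.73% of all bins, and 30 (6.98%) and 71 (13.0%) were earlier, beside 12.9%.

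Runs of at least 3 such bins (past 3 min in both backgrounds), parted by at most 2 kb, lay in 13 places for later and 11 for earlier timing. Per 1000 bins this came to 13.3 later and 11.3 earlier runs, beside 8.91 and 14.4 on the other 15 chromosomes, of which 2 had a higher rate of later runs and 10 a higher rate of earlier runs. The longest earlier runs lay 1 in each outer block. From 22001 to 43000, over ARS1202 and genes such as AQY2 (an aquaporin) and FRE6 (a vacuolar metal reductase), the centred difference was -7.04 ± 3.95 and -5.13 ± 2.88 min over 21 bins. From 1002001 to 1027000, over ARS1232, ARS1233, ARS1234 and the silencing gene SIR3, it was -5.88 ± 3.39 and -4.24 ± 2.54 min over 25 bins. The longest later runs were in the left block from 183001 to 195000, over IZH3 and UBR2 (5.87 ± 3.70 and 3.33 ± 4.21 min over 12 bins), and in the right block from 706001 to 716000, over RPS30A and MEC3 (4.12 ± 3.09 and 2.36 ± 2.65 min over 10 bins). A later run from 494001 to 499000, over SHH4, PUS5, SEC10 and RPS31 (which encodes a ubiquitin-ribosomal protein fusion), began 3 kb beyond the repeat block, with 6.38 ± 3.17 and 6.33 ± 2.97 min over 5 bins.

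Among single bins of the outer blocks, the most delayed relative to the genome without ARS1008 and ARS1009 was that of BRE2 (of the COMPASS histone methylase), from 175001 to 176000, at 33.2 min with *SSDDCS* and 22.6 min without, a centred 16.1 min. It was followed by YLR030W (203001 to 204000, 11.4 min) and UBR2 (188001 to 189000, 11.1 min). The most advanced were DUS3 (of tRNA modification, 923001 to 924000, -16.6 min), the bin of BUD8 and TAL1 (836001 to 837000, -15.2 min) and that of DCR2 and STE11 (849001 to 850000, -13.9 min). Without ARS816 and ARS818 the most delayed were a second UBR2 bin (193001 to 194000, 10.9 min), the SHH4 and PUS5 bin next to the repeat (10.1 min) and the ENT2 and HRD3 bin (9.87 min). The delay of the SHH4 and PUS5 bin is limited by its lasting level, as given above. The most advanced were ORM2 (of sphingolipid control, 828001 to 829000, -13.9 min), YLL056C (28001 to 29000, -12.2 min) and ADE13 (844001 to 845000, -12.1 min). In the other background the centred values of these 12 bins had the same sign except at YLR030W, where it was -6.38 min. Each was smaller in size there. In the order named, they were 4.59, -6.38, 6.69, -7.98, -0.273 and -9.16 min for the bins of the first background. For those of the second they were 3.18, 3.10, 1.91, -10.8, -11.4 and -6.07 min. The BUD8 and TAL1 bin thus had almost no centred difference in the other background.

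The centromere of Chr XII (150828 to 150947) was early in each strain. The 20 bins within 10 kb had a mean T_rep, with the SD over bins, of 13.7 ± 1.5, 16.9 ± 2.56, 18.2 ± 1.29 and 20.5 ± 1.49 min. The outermost 20 kb of the left end, with 6 bins in the files, had 15.4 ± 0.574, 24.4 ± 2.55, 20.7 ± 2.18 and 25.4 ± 0.790 min. The only bin of the right end had 15.2, 23.6, 19.9 and 23.4 min. The ends followed the centromere by 1.7 and 2.36 min with *SSDDCS* and by 7.42 and 4.63 min without.

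CDC45, which encodes a subunit of the replicative helicase, lies on Chr XII from 343989 to 345941 on the minus strand, and the *SSDDCS* strains carry a further copy at leu2 whose reads cannot be told apart from it. Its 3 bins had a T_rep of 14.2, 21.7, 20.0 and 24.6 min and differed from the 20 bins around them by -2.58, -0.888, -1.11 and -0.325 min, against SDs over those 20 bins of 1.74, 3.49, 2.11 and 3.14 min. Other replication and silencing genes of the right block differed in time. TOP3, a type I topoisomerase, was early at 13.1, 16.5, 17.7 and 21.0 min, and MCM5, of the replicative helicase, was late at 21.4, 26.3, 26.6 and 28.6 min. SIR3, near the right end, was at 13.1 and 16.3 min with *SSDDCS* and at 20.9 and 26.6 min without.

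Between the backgrounds the blocks of Chr XII moved with the genome. The strains without ARS1008 and ARS1009 differed genome-wide from those without ARS816 and ARS818 by a median of -4.65 min with *SSDDCS* and -3.50 min without, and after centring the left block differed by 0.106 and -0.302 min and the right block by -0.169 and -0.123 min. With *SSDDCS*, 12.8% of left and 13.7% of right bins were later by over 3 min beside 14.5% of all bins, and 11.2% and 14.3% were earlier beside 12.6%. Without it, 14.9% and 17.9% were later beside 20.2%, and 17.9% and 16.3% earlier beside 15.9%.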

How the data were processed

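Genomic DNA was sequenced in G1 and at 11 timepoints in 4 strains, and 44 files were used. The submitters' processing notes name Bowtie2 (2.3.4), SAMtools (1.7.2), bedtools (2.26.0) and sacCer3, while the study's methods give other versions of Bowtie2 and SAMtools and do not name bedtools. The deposited value is a ratio: the authors divided uniquely mapped reads per 1-kb bin by those in G1 and scaled the result to the replicated share from flow cytometry. This scaling sets the mean of each file, so no timepoint carries information on the overall extent of replication. For each bin with at least 6 timepoints a logistic function rising from 1 to 2 was matched to the ratios by least squares (Python 3.11.15, numpy 2.4.6, pandas 2.3.3, matplotlib 3.10.9), and T_rep was kept between 0 and 60 min. The fit was tested on simulated data. Differences between strains were centred on the genome-wide median difference and called when over 3 min. Ranges were taken over fits that left out 1 timepoint each. The files hold no read counts, so depth is unknown. The named bins were those inside and within 5 bins of the repeat and the earliest and latest of each outer block. Added to these were the 3 bins with the largest centred difference in each direction, taking 1 bin per 10 kb. The members and lists were chosen with earlier results of these data known. Word uniqueness, the distance to origins and the steps, runs and origins elsewhere in the genome were added after the files had been seen. Alternatives were re-estimated bulk values, an upper asymptote left free, T_rep as the first crossing of 1.5, a residual limit of 0.15, means in place of medians, no centring, another threshold and other flank sizes.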

Additional observations from a re-analysis of the deposited data

Results flagged for a closer look

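Of 56 results looked at, 1 moved in opposite directions in the backgrounds. The bin from 203001 to 204000, in YLR030W, was later with *SSDDCS* relative to the genome without ARS1008 and ARS1009 (a centred difference of 11.40 min, with a T_rep of 30.2 min against 24.3 min) and earlier without ARS816 and ARS818 (-6.38 min, 19.9 against 30.5 min). With 1 time course per strain this difference was not tested.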

How the results depend on the processing

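Of 420 values under alternatives, over 34 results, 386 were counted as unmoved, 30 as moved and 4 as changed in direction. Unmoved meant a shift of at most the range over fits that left out 1 timepoint. For counts and ARS1200-1 factors it meant at most 1.5 times. CDC45 and end values had no such range and were allowed 1 min. Settings on another scale were judged by sign. The fits that left out 1 timepoint are themselves among the 420 and set that range, so 386 does not measure robustness. The cause of a shift was not tested in any case. The right minus left block difference was 0.812 min with a free upper asymptote, 0.636 min as a mean and 0.684 min without the outermost 50 kb in *SSDDCS ars816∆ ars818∆*, and 1.55 and 1.43 min for the latter choices in its *sml1∆* partner. The centred difference between *SSDDCS* and *sml1∆* in the left block was 1.07 and 0.509 min as a mean and 1.83 and 1.09 min without the outermost 50 kb, and in the right block -0.404 min as a mean without ARS816 and ARS818. Without centring it turned to -3.99 and -3.41 min on the left and was -5.50 and -4.30 min on the right, and the differences between backgrounds became -4.55 and -4.82 min with *SSDDCS* and -3.80 and -3.62 min without. The 498 bins past 3 min became 264 at 5 min without ARS1008 and ARS1009, and the 376 without ARS816 and ARS818 became 153 at 5 min and 617 without centring. The step across the repeat, with 5 and 20 bins on each side, was 5.49 and 0.877 min in *SSDDCS ars1008∆ ars1009∆*, 6.50 and 1.22 min in *SSDDCS ars816∆ ars818∆* and 2.43 and -1.51 min in *sml1∆ ars816∆ ars818∆*, and with 20 bins it turned to -0.691 min in *sml1∆ ars1008∆ ars1009∆*. In *SSDDCS ars816∆ ars818∆* it was 4.10 min by the first crossing of 1.5 and 3.98 min with residuals under 0.15. The smoothed profile had 45, 60, 38 and 49 local minima, of which 14, 14, 11 and 8 lay within 2.5 kb of an annotated origin. Among origins at a local minimum, 14, 10, 11 and 7 were earlier than the genome median.

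Leaving out 1 timepoint gave block differences of 0.647 to 1.20, 1.25 to 2.19, 0.967 to 1.16 and 1.04 to 1.34 min, and steps across the repeat of 3.83 to 4.42, 0.242 to 1.96, 4.38 to 4.72 and 0.405 to 1.02 min. The *SSDDCS* minus *sml1∆* differences ran from 1.28 to 1.56 and 0.724 to 0.931 min on the left and from -0.305 to 0.265 and -0.130 to 0.0278 min on the right, with 488 to 530 and 364 to 424 bins past 3 min. Between backgrounds they ran from -0.0076 to 0.240 and -0.491 to 0.0782 min with *SSDDCS* and from -0.397 to -0.144 and -0.327 to -0.0159 min without. Early origins numbered 26 to 27, 19 to 20, 25 to 26 and 19 to 21. No paired analysis was possible because the labels give no replicate numbers and the results come from no test; the differences within the 2 backgrounds are given side by side. Reads per bin are not given, so counting error could not be separated from the scatter of single bins, and a difference between strains cannot be told apart from one between cultures.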
